A study of Homo sapiens with 4 samples.

Results

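ETS transcription factors with a known part in prostate cancer were followed in engineered prostate cancer tissues, human cancer cells grown inside a poly(ethylene glycol)-fibrinogen hydrogel. The set was given by name as ETV1, ETV4, ETV5, ERG, ETS1, ETS2, EHF, ELF3 and SPDEF and was found by gene symbol. Of these 9 genes, 8 had a row among the 17791 genes of the count table, and ERG is not analysed here. The data were 4 bulk RNA libraries from day 15, with 1 library in each of 4 untreated groups. The LNCaP coculture held LNCaP cells, a prostate cancer line labelled androgen-dependent, with BJ-5ta normal human fibroblasts, and the LNCaP monoculture held LNCaP cells alone. The PC-3 coculture held PC-3 cells, a prostate cancer line labelled castration-resistant (CRPC-ne), with the same fibroblasts, and the PC-3 monoculture held PC-3 cells alone. Either coculture was seeded with 5 cancer cells to 1 fibroblast. Each line stands for 1 tumour, RNA came from more than 2 tissues per group without word on pooling, and the culture medium is described for PC-3 tissues (10% serum) but not for LNCaP tissues in the sources used here.

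Library totals lay between 15520263 and 15865699 estimated counts. Levels are given as CPM, counts per 1000000 counts after TMM scaling between libraries. With 1 library per group no test of a difference was possible. Each 95% interval, Poisson for a level and conditional binomial for a ratio, covers counting error only, and every comparison is between 2 libraries rather than 2 conditions. The 5 LNCaP markers summed to 9732 CPM in LNCaP coculture and 7832 CPM in LNCaP monoculture, against 413 CPM in PC-3 coculture and 462 CPM in PC-3 monoculture, and KLK3, prostate-specific antigen, was at 0 counts in either PC-3 library. The 5 PC-3 markers, CD44, VIM, CAV1, ANXA1 and S100A2, summed to 418 CPM in LNCaP coculture and 99.6 CPM in LNCaP monoculture, against 1095 CPM in PC-3 coculture and 1241 CPM in PC-3 monoculture. At 1 CPM or more were 4 of these 5 in LNCaP coculture, with S100A2 at 0 counts, and 1 of 5, VIM, in LNCaP monoculture.

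ETS factors share a DNA-binding domain that recognises a GGAA core, and their subfamilies differ in their partners and in the signals they answer to. ETV1, ETV4 and ETV5 form the PEA3 subfamily, which acts downstream of RAS and ERK signalling and promotes invasion, and which chromosomal rearrangements place under strong prostate promoters in some tumours. ETS1 and ETS2 are ERK-responsive founders of the family that are also used in stromal, endothelial and lymphoid cells. EHF, ELF3 and SPDEF are epithelial members, expressed in the differentiated luminal epithelium of the prostate and other glands. LNCaP cells are known to carry a copy of ETV1 moved next to MIPOL1 on chromosome 14, and PC-3 cells are known for strong ETV4 expression.

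Promoter windows were available for 5 of the 8 members, from RefSeq on GRCh38.p14, reaching from 250 bases before to 50 after an annotated start. The 4 windows below are examples, of ETV1 and EHF for the members higher in LNCaP, of ELF3 for those lower in LNCaP, and of SPDEF, which did not reach 2-fold. They are chr7:13991376-13991675 on the minus strand for ETV1, chr11:34624007-34624306 on the plus strand for EHF, chr1:202010337-202010636 on the plus strand for ELF3 and chr6:34556280-34556579 on the minus strand for SPDEF. Capitals mark the ETS core GGAA or its reverse complement TTCC, read 5′ to 3′ on the strand of the gene.
ETV1: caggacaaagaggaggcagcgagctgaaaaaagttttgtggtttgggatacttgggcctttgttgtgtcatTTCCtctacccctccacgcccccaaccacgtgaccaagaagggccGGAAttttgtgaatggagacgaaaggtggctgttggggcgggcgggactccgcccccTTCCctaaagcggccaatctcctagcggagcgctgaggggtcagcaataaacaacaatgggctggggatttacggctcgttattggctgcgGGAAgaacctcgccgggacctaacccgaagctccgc
EHF: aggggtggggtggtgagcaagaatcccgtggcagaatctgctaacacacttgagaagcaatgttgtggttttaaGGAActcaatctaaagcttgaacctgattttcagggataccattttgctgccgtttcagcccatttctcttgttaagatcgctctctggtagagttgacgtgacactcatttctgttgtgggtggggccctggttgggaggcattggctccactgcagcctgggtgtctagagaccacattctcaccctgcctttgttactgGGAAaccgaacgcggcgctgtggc
ELF3: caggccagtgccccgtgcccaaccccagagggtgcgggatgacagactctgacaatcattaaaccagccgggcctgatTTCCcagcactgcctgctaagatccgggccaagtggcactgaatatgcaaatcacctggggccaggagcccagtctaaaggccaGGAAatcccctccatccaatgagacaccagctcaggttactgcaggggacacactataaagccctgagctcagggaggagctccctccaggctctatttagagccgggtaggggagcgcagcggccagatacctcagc
SPDEF: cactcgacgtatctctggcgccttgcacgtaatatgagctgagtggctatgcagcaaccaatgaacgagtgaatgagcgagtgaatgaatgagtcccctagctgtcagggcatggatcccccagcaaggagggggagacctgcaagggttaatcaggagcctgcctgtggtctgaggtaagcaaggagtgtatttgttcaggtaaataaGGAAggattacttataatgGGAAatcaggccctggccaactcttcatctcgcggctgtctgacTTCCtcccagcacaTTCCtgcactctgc
The windows of ETV1 and SPDEF held 4 cores each, and those of EHF and ELF3 held 2 each. Over all 35116 RefSeq windows of the same length, 95.5% held at least 1 core and the median was 3. ETS2, which was also lower in LNCaP, has 2 windows that are not shown, with 4 and 7 cores, and 91.7% of all windows held fewer than 7. The longer site CCGGAAGT, which contains the core, was found on either strand in 4.14% of all windows and in none of the 4 shown. The TATA element TATAAA was present in the ELF3 window and in none of the other 3 shown, against 11.5% of all windows searched on both strands. The windows of ETV1, ELF3 and SPDEF lie at the RefSeq start of the gene, and that of EHF at a start further inside it. ETV1 and EHF also have other annotated starts, and gene-level counts do not tell which start was used.

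The PEA3 genes divided the cancer lines: LNCaP libraries held ETV1 and almost no ETV4 or ETV5, whereas PC-3 libraries held all 3. ETV1 (chromosome 7, 13891229 to 13991425) was at 374 CPM in LNCaP coculture and 311 CPM in LNCaP monoculture, against 58.3 CPM in PC-3 coculture and 42.4 CPM in PC-3 monoculture. It was 7.35-fold higher in LNCaP than in PC-3 monoculture (6.78 to 7.98) and 6.42-fold higher in LNCaP than in PC-3 coculture (5.99 to 6.89). ETV1 was thus high in both LNCaP libraries and present, at a lower level, in both PC-3 libraries. ETV4 (chromosome 17, 43527846 to 43546340) had 17 counts, or 1.10 CPM, in LNCaP coculture and 3 counts, or 0.190 CPM, in LNCaP monoculture. In PC-3 coculture it had 2819 counts, or 180 CPM, and in PC-3 monoculture 3050 counts, or 191 CPM. Its level in monoculture was 1006-fold lower in LNCaP than in PC-3 (344 to 4880), an interval made wide by the 3 LNCaP counts. ETV5 (chromosome 3, 186046314 to 186109089) followed the order of ETV4, with 27 counts in LNCaP coculture and 1 in LNCaP monoculture, against 1172 in PC-3 coculture and 1190 in PC-3 monoculture. In coculture ETV5 was 43.0-fold lower in LNCaP than in PC-3 (29.4 to 65.5) and ETV4 164-fold lower (102 to 282).

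Exons of ETV4 overlap those of DHX8, an RNA helicase gene on the opposite strand, in the GENCODE v29 annotation, and the library kit named in the labels does not mark strand. DHX8 had 1048 counts in LNCaP coculture, 972 in LNCaP monoculture, 994 in PC-3 coculture and 846 in PC-3 monoculture. It was therefore similar in libraries in which ETV4 ran from 3 to 3050 counts. ETV5 shares exon sequence on its own strand with DGKG, a diacylglycerol kinase gene, which had 0 counts in either LNCaP library, 45 in PC-3 coculture and 65 in PC-3 monoculture. How reads in the shared stretches were assigned is not given in the sources used here.

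ETS1 and ETS2 were higher in PC-3 than in LNCaP libraries, ETS1 by far more. ETS1 (chromosome 11, 128458765 to 128587558) was at 5.48 CPM in LNCaP coculture and 0.887 CPM in LNCaP monoculture, against 83.1 CPM in PC-3 coculture and 79.5 CPM in PC-3 monoculture. It was 89.7-fold lower in LNCaP than in PC-3 monoculture (53.2 to 164) and 15.2-fold lower in coculture (12.2 to 19.1). ETS2 (chromosome 21, 38805183 to 38824955) was at 20.3 CPM in LNCaP coculture and 13.4 CPM in LNCaP monoculture, against 78.4 CPM in PC-3 coculture and 70.5 CPM in PC-3 monoculture. ETS2 was thus present in all 4 libraries, and lower in LNCaP by 5.25-fold in monoculture (4.53 to 6.11) and 3.86-fold in coculture (3.41 to 4.38).

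The epithelial members were abundant in all 4 libraries, but EHF and ELF3 ran in opposite directions. EHF (chromosome 11, 34621093 to 34663288) was at 1011 CPM in LNCaP coculture and 902 CPM in LNCaP monoculture, against 169 CPM in PC-3 coculture and 154 CPM in PC-3 monoculture. It was 5.85-fold higher in LNCaP than in PC-3 monoculture (5.61 to 6.11) and 5.98-fold higher in coculture (5.74 to 6.24). ELF3 (chromosome 1, 202010587 to 202017183) was at 71.9 CPM in LNCaP coculture and 76.6 CPM in LNCaP monoculture, against 428 CPM in PC-3 coculture and 442 CPM in PC-3 monoculture. The fold for ELF3 was of like size to that of EHF with the sign turned, 5.77-fold lower in LNCaP monoculture (5.42 to 6.13) and 5.96-fold lower in LNCaP coculture (5.59 to 6.35). SPDEF (chromosome 6, 34537802 to 34556329) was at 257 CPM in LNCaP coculture and 242 CPM in LNCaP monoculture, against 187 CPM in PC-3 coculture and 188 CPM in PC-3 monoculture. It was 1.29-fold higher in LNCaP than in PC-3 monoculture (1.23 to 1.35) and 1.37-fold higher in coculture (1.31 to 1.44). The SPDEF ratios exclude 1 by counting error, but neither reaches 2-fold. ELF3 also overlaps an antisense gene, ELF3-AS1, which had 75 counts in LNCaP coculture, 78 in LNCaP monoculture, 141 in PC-3 coculture and 142 in PC-3 monoculture.

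**Figure D1:**
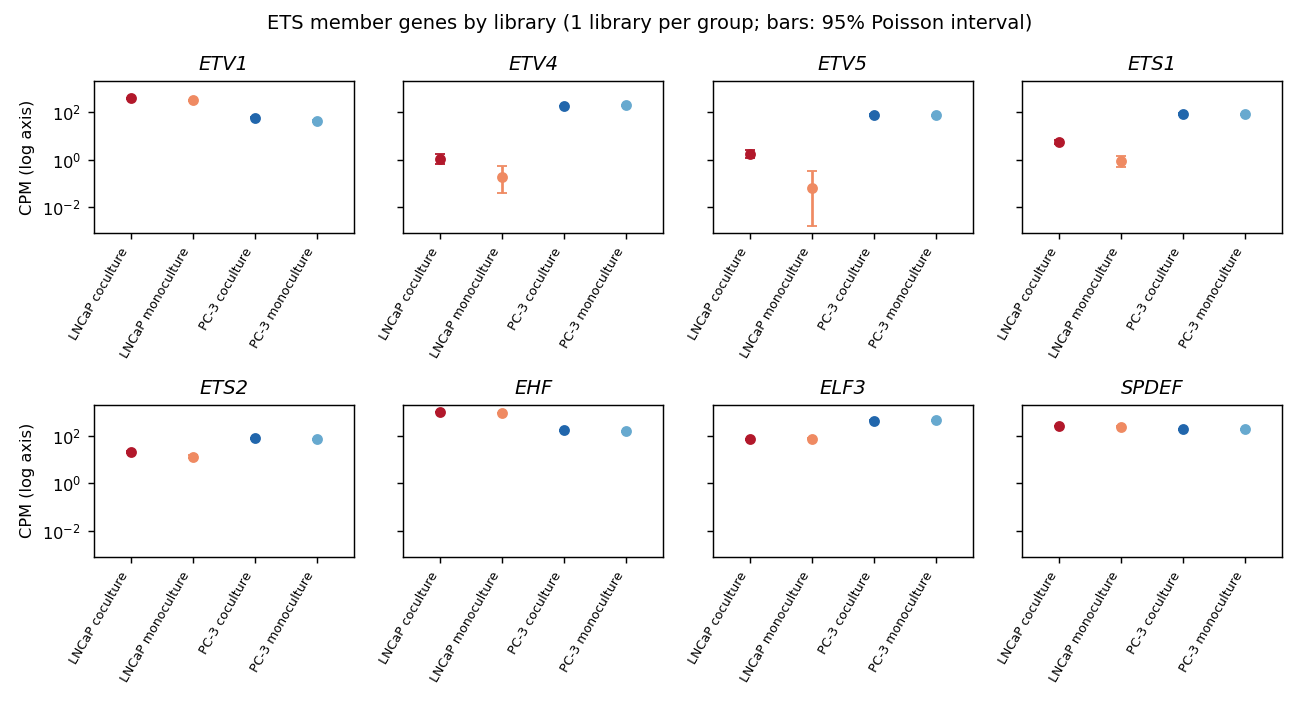
CPM on a log axis of the 8 member genes in each of the 4 libraries, 1 library per group, with 95% Poisson intervals as bars. ETV1 and EHF are higher in both LNCaP libraries, ETV4, ETV5, ETS1, ETS2 and ELF3 are higher in both PC-3 libraries, and SPDEF lies between 187 and 257 CPM in all 4.

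A gene was counted as measured when it reached 1 CPM in either library of a pair, and as at least 2-fold higher or lower when its log2 fold, with a prior count of 2, reached 1 or -1. All 8 members were measured in both comparisons of lines. In monoculture 2 of the 8, ETV1 and EHF, were at least 2-fold higher in LNCaP than in PC-3, where 22.1% of all 15160 measured genes were, and 5, ETV4, ETV5, ETS1, ETS2 and ELF3, were at least 2-fold lower, where 23.6% of all measured genes were. In coculture the counts were again 2 higher, against 20.6% of measured genes, and 5 lower, against 23.6%. The members' median log2 fold was -2.45 in monoculture, where that of all measured genes was 0.04, and -2.26 in coculture, where that of all measured genes was 0.01. Differences of 2-fold between these lines are common across the table, so the count of 2 higher members is near the background and the count of 5 lower members is above it. The members were chosen with earlier results of these data known, so these counts are a description only.

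**Figure D2:**
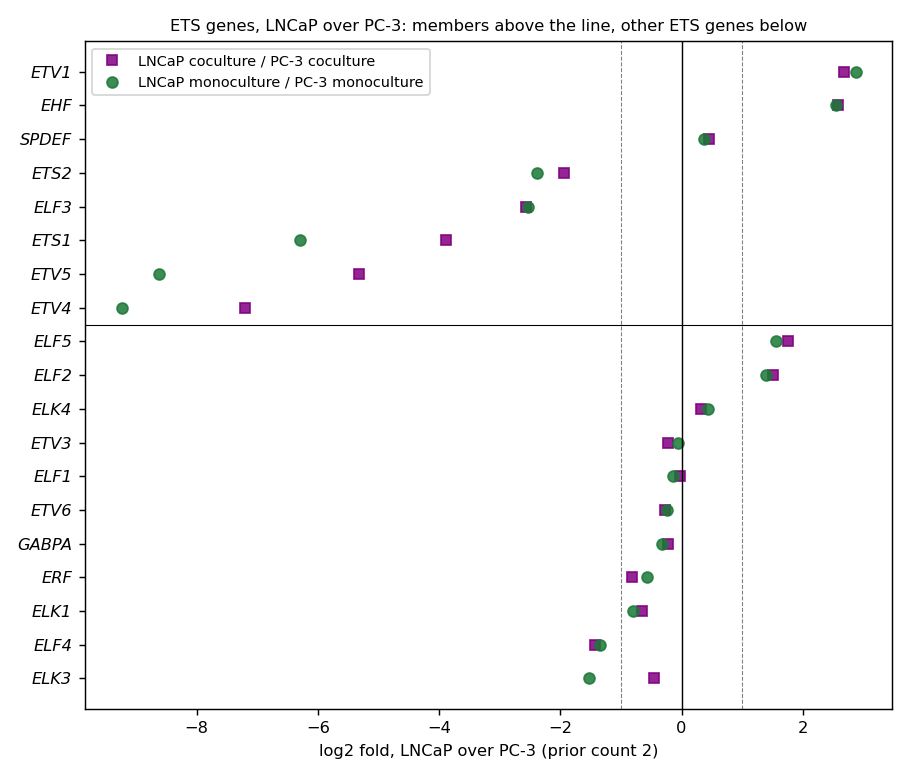
Log2 fold of LNCaP over PC-3 (prior count 2) for the 8 members above the line and, below it, the other ETS genes with at least 1 CPM in both comparisons, in coculture (squares) and monoculture (circles). Dashed lines mark 2-fold. Members spread from -9.24 (ETV4, monoculture) to 2.87 (ETV1, monoculture), with SPDEF between the dashed lines. Outside the set, ELF2 and ELF5 lie right of them, ELF4 and, in monoculture, ELK3 lie left of them, and the rest shown lie between them.

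Levels of different genes were compared per kb of the longest GENCODE v29 transcript, as a share of the summed CPM per kb of 24 ETS genes, the 8 members and 16 others in the table. EHF made up 49.8% of this sum in LNCaP coculture and 48.4% in LNCaP monoculture, against 10.7% in PC-3 coculture and 9.63% in PC-3 monoculture. SPDEF, the second in order in LNCaP, made up 21.0% in LNCaP coculture and 21.6% in LNCaP monoculture, and ETV1, the third, 8.62% and 7.81% in the same libraries. By this length, ETS transcripts of LNCaP were led by EHF, with SPDEF and ETV1 behind it. In PC-3 no gene led by as much: SPDEF made up 19.6% in the coculture and 19.5% in the monoculture, ELF3 17.0% and 17.4%, and ETV4 14.7% and 15.5%.

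All 8 members together made up 82.8% of the ETS sum in LNCaP coculture and 81.0% in LNCaP monoculture, against 74.5% in PC-3 coculture and 73.4% in PC-3 monoculture. At the low end, ETV4 at 0.451 CPM per kb and ETV5 at 0.423 CPM per kb did not differ beyond counting error in LNCaP coculture. In PC-3 monoculture ETV5 at 18.1 CPM per kb and ETS2 at 17.9 CPM per kb had overlapping intervals, as they did in PC-3 coculture at 18.2 and 19.9 CPM per kb. The order depends on the transcript length used. With the median length over a gene's transcripts EHF made up 66.6% of the sum in LNCaP coculture and 65.5% in LNCaP monoculture. The order of the next 2 turned, with ETV1 at 12.1% in LNCaP coculture and 11.1% in LNCaP monoculture and SPDEF at 5.06% and 5.26% in the same libraries. In PC-3, ELF3 then led with 30.2% in the coculture and 31.3% in the monoculture, and SPDEF had 6.02% and 6.06%.

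**Figure D3:**
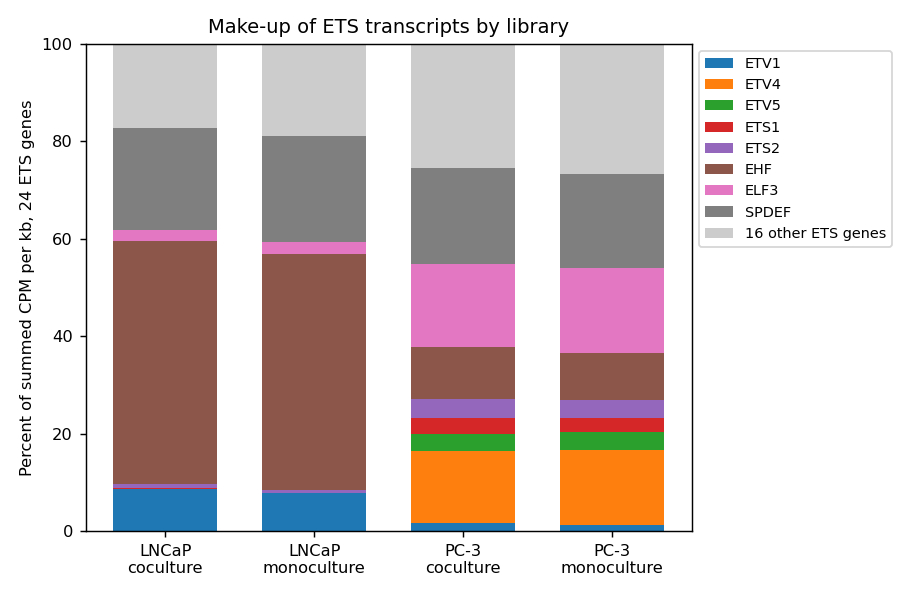
Share of the summed CPM per kb of 24 ETS genes taken by each of the 8 members and by the 16 others together, as stacked bars for each library. EHF takes 49.8% in LNCaP coculture and 48.4% in LNCaP monoculture, against 10.7% in PC-3 coculture and 9.63% in PC-3 monoculture.

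Most ETS genes outside the set differed less between the lines. Of 12 measured in monoculture, 3 were at least 2-fold higher in LNCaP (ELF2, ELF5 and FEV), 2 at least 2-fold lower (ELK3 and ELF4) and 7 in between. Among all measured genes 22.1% were higher and 23.6% lower. Over the list, the median log2 fold was -0.19. ELF2, a ubiquitous member, was 2.63-fold higher in LNCaP than in PC-3 monoculture (2.31 to 3.00). ELK3, a ternary complex factor that acts with serum response factor, had 171 counts in LNCaP monoculture against 501 in PC-3 monoculture and was 2.90-fold lower (2.43 to 3.47). GABPA, which drives housekeeping promoters, had 753 counts in LNCaP and 947 in PC-3 monoculture, a ratio of 0.804 (0.729 to 0.885). With fibroblasts 0 of 12 in LNCaP and 0 of 11 in PC-3 reached 2-fold in either direction. Shares of all measured genes were also small, at 4.56% higher and 3.03% lower in LNCaP, and 2.22% higher and 1.01% lower in PC-3. The counts of 0 are thus near the background. ELK3 came nearest to 2-fold, with 326 counts in LNCaP coculture against 171 in LNCaP monoculture and a ratio of 1.94 (1.61 to 2.35). Genes under 1 CPM in both LNCaP libraries were not counted. Of these, ETV7 had 11 counts in LNCaP coculture against 0 in LNCaP monoculture and FLI1 6 against 0. ETV2 had 7 against 11 and SPI1 4 against 7. Members used mainly in blood and endothelial cells were close to the detection limit. SPI1 had 4 counts in LNCaP coculture, 7 in LNCaP monoculture, 5 in PC-3 coculture and 3 in PC-3 monoculture. FLI1 had 6, 0, 20 and 14 counts in the same order, and the 0 sets an upper limit of 3 counts, 0.190 CPM.

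Fibroblasts in LNCaP tissues went with more transcripts of ETS1, ETV4 and ETV5, the 3 members that LNCaP cells alone barely held. ETS1 had 85 counts in LNCaP coculture against 14 in LNCaP monoculture and was 6.18-fold higher (3.49 to 11.8). ETV5 had 27 counts against 1, a ratio of 27.5 (4.53 to 1125), and ETV4 had 17 against 3, a ratio of 5.77 (1.67 to 30.7). All 3 stayed far under their levels in either PC-3 library, and the ratios for ETV4 and ETV5 rest on 3 counts or fewer in the monoculture. These were the 3 of 8 members at least 2-fold higher in LNCaP coculture, where 4.56% of all 14119 measured genes were, and 0 of 8 were at least 2-fold lower, where 3.03% were. All 3 were under 1 CPM in LNCaP monoculture and so were measured only through the coculture, and the count is given as a description. With at least 5 CPM required, 1 of them, ETS1, was still counted.

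Fibroblast markers and other marker lists moved in the same pair of libraries. The 16 markers summed to 955 CPM in LNCaP coculture, with 15 of 16 at 1 CPM or more, against 1.08 CPM in LNCaP monoculture, with 0 of 16 at 1 CPM or more and 10 of 16 at 0 counts, among them COL1A2, LUM, DCN and MMP2. Endothelial markers summed to 77.1 CPM in LNCaP coculture against 52.6 CPM in LNCaP monoculture, with 2 of 8 at 1 CPM or more in either library (EGFL7 and VWF) and KDR at 0 in both. VWF, von Willebrand factor, had 567 counts in LNCaP coculture against 171 in LNCaP monoculture, a ratio of 3.37 (2.84 to 4.03). Of the 5 PC-3 markers, 4 were measured and all 4 were at least 2-fold higher in LNCaP coculture, where 4.56% of all measured genes were. S100A2 had 0 counts in LNCaP coculture. CD44, an adhesion receptor, had 776 counts against 1, and VIM, vimentin, 5239 against 1559. Only VIM reached 1 CPM in LNCaP monoculture, so the others were measured only through the coculture. Blood and immune markers summed to 16.8 CPM in LNCaP coculture against 4.94 CPM in LNCaP monoculture, with 1 of 5 at 1 CPM or more in either, CD68. This coculture was seeded with LNCaP cells and fibroblasts only. PC-3 monoculture, with PC-3 cells alone, held 236 CPM of the endothelial markers and 45.2 CPM of the blood and immune markers. The PC-3, endothelial and blood lists therefore do not identify cell types here. The part of fibroblast RNA in the ETS1, ETV4 and ETV5 counts was not tested. In bulk RNA more cells of a type and more RNA per cell cannot be told apart.

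Members that LNCaP cells already held at high levels stayed within 2-fold with fibroblasts. ETV1 had 5802 counts in LNCaP coculture against 4916 in LNCaP monoculture, a ratio of 1.20 (1.16 to 1.25), and EHF had 15685 against 14238, a ratio of 1.12 (1.10 to 1.15). SPDEF had a ratio of 1.06 (1.01 to 1.11) and ELF3 of 0.939 (0.865 to 1.02). The intervals of ETV1, EHF and SPDEF exclude 1 by counting error, and that of ELF3 holds 1. ETS2 was in between, with 315 counts against 212 and a ratio of 1.51 (1.27 to 1.81).

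In the PC-3 tissues 0 of 8 members were at least 2-fold higher with fibroblasts, where 2.22% of all 14417 measured genes were, and 0 of 8 at least 2-fold lower, where 1.01% were. ETV1 had the largest ratio, with 913 counts in PC-3 coculture against 676 in PC-3 monoculture, or 1.38 (1.24 to 1.52). ETV4 was slightly lower, at 0.941 (0.894 to 0.991), while ETV5 at 1.00 (0.925 to 1.09) and ETS1 at 1.05 (0.967 to 1.13) had intervals that hold 1. ETV1 was thus higher in coculture than in monoculture in both lines, whereas ETV4 and ETV5 had PC-3 ratios near 1. Ratios were 1.11 for ETS2 (1.02 to 1.21), 1.10 for EHF (1.04 to 1.16), 0.970 for ELF3 (0.938 to 1.00) and 0.996 for SPDEF (0.946 to 1.05). The 16 fibroblast markers summed to 598 CPM in PC-3 coculture against 112 CPM in PC-3 monoculture, with 15 of 16 against 3 of 16 at 1 CPM or more.

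The log2 folds of the cocultures differed between the lines, LNCaP minus PC-3, by 3.29 for ETV5 (1.57 to 5.01), 2.40 for ETS1 (1.63 to 3.18) and 2.03 for ETV4 (0.61 to 3.46). These 3 of 8 members had a difference of at least 1, where 6.6% of 15531 measured genes had, and 0 of 8 had one of -1 or below, where 5.92% had. The intervals hold counting error only. The LNCaP coculture exceeded its monoculture by 4.59 CPM for ETS1 and by 1.68 CPM for ETV5. Added to the PC-3 monoculture levels, the same amounts would give ratios of 1.06 and 1.02, which lie inside the intervals of the PC-3 ratios. Those intervals also hold 1, so counting error in PC-3 covers a gain of this size. Whether PC-3 tissues had an equal gain was not tested. The 16 fibroblast markers went from 1.08 CPM to 955 CPM with fibroblasts in LNCaP, and from 112 CPM to 598 CPM in PC-3. For ETV4 the same sum gives 1.00, just above the upper bound of 0.991. For ETS2, which gained 6.88 CPM in LNCaP, it gives 1.10, inside a PC-3 interval that excludes 1 (1.02 to 1.21).

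**Figure D4:**
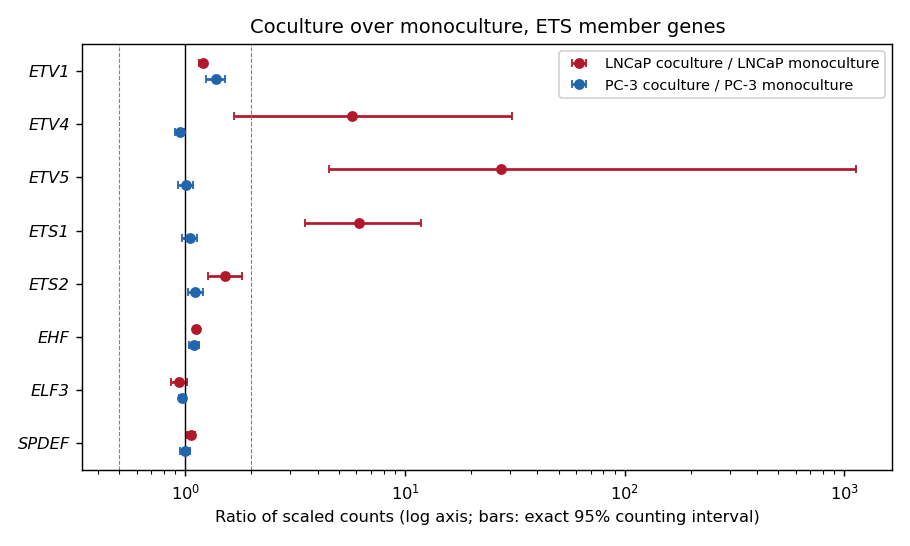
Ratio of scaled counts on a log axis, coculture over monoculture, for the 8 members in LNCaP (red) and PC-3 (blue), with exact 95% counting intervals. ETV4, ETV5 and ETS1 stand right of the dashed 2-fold line in LNCaP, and all PC-3 ratios lie between 0.941 and 1.38.

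Most listed feedback and target genes of ERK signalling were lower in LNCaP, as were ETV4 and ETV5. PEA3 factors act downstream of this pathway, but ERK activity was not measured and a link in these libraries was not tested. ETV1, also of the PEA3 subfamily, ran the other way and was 7.35-fold higher in LNCaP than in PC-3 monoculture. Of 16 feedback and target genes, 14 were at least 2-fold lower in LNCaP than in PC-3 monoculture, 1 at least 2-fold higher (EGR1) and 1 in between (CCND1, cyclin D1). Among all measured genes 23.6% were lower and 22.1% higher by this measure. The median log2 fold of the list was -5.04. DUSP6, a phosphatase that switches off ERK, had 16 counts in LNCaP monoculture against 2849 in PC-3 monoculture and was 176-fold lower (108 to 309). SPRY4, an inhibitor of receptor signalling to RAS, had 12 counts against 4941, and FOSL1, an AP-1 subunit stabilised by ERK, 5 against 8538. In coculture 14 of 16 were again at least 2-fold lower in LNCaP than in PC-3, where 23.6% of all measured genes were. Over the list, the median log2 fold was -3.83.

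With fibroblasts, 7 of 15 measured genes of this list were at least 2-fold higher in LNCaP coculture than in LNCaP monoculture and 0 lower. Among all measured genes 4.56% were higher and 3.03% lower. Of these 7, FOSL1 and SPRY4 were under 1 CPM in LNCaP monoculture and were measured only through the coculture. PHLDA1, a target of ERK signalling, had 459 counts against 73 and a ratio of 6.40 (4.99 to 8.31), and DUSP6 had 76 against 16 and a ratio of 4.83 (2.79 to 8.88). In PC-3 coculture 1 of 16 was at least 2-fold higher, where 2.22% of all measured genes were. It was EGR1, an immediate early factor, with 84 counts against 7, and was measured only through the coculture. EGR1 was also higher in LNCaP coculture, with 302 counts against 64 in LNCaP monoculture. The LNCaP coculture is also the library in which the fibroblast markers reached 955 CPM, and which cells held these transcripts was not tested.

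**Figure D5:**
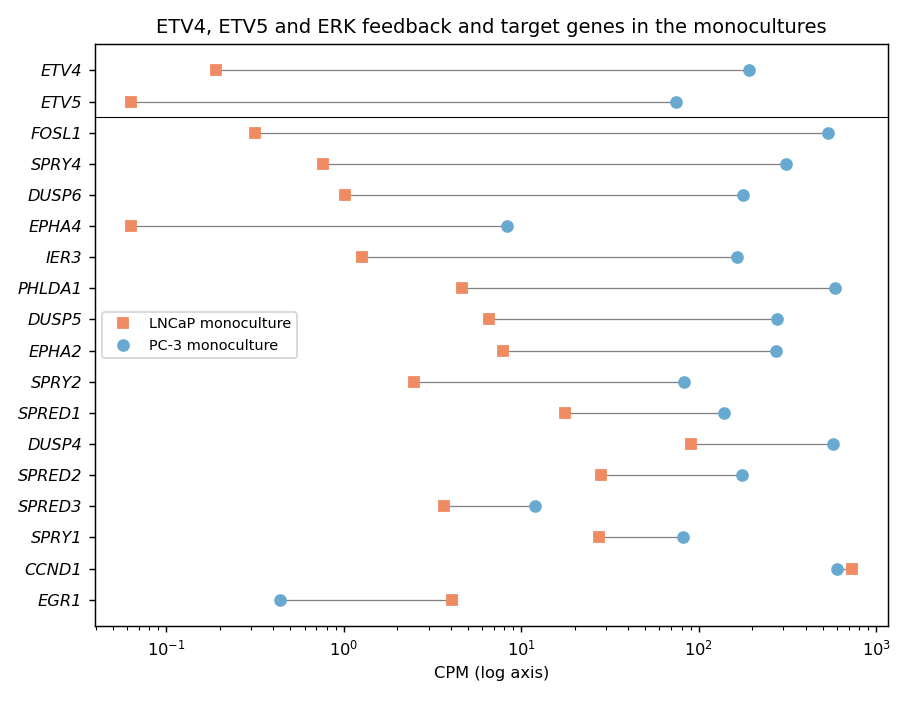
CPM on a log axis of ETV4 and ETV5 (above the line) and of 16 ERK feedback and target genes in LNCaP monoculture (squares) and PC-3 monoculture (circles), joined by a line per gene. ETV4 and ETV5 and 14 of the 16 genes lie lower in LNCaP, by at least 2-fold, while CCND1 is at 734 CPM in LNCaP and 598 CPM in PC-3. ETV1, which was higher in LNCaP, is not shown.

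The COP1 ubiquitin ligase, which marks PEA3 proteins for degradation, and the TRIB adaptors of COP1 differed by component. COP1 had 640 counts in LNCaP coculture and 653 in LNCaP monoculture, against 70 in PC-3 coculture and 55 in PC-3 monoculture. It was 12.0-fold higher in LNCaP than in PC-3 monoculture (9.11 to 16.1). The adaptor TRIB2 ran the other way, with 63 counts in LNCaP coculture and 17 in LNCaP monoculture, against 2160 in PC-3 coculture and 2249 in PC-3 monoculture. Of the 7 measured components and adaptors, 1 (COP1) was at least 2-fold higher in LNCaP monoculture, where 22.1% of all measured genes were. Lower by at least 2-fold were 4 (TRIB1, TRIB2, TRIB3 and DDB1), where 23.6% of all measured genes were. With fibroblasts 1 of 7, TRIB2, was at least 2-fold higher in LNCaP (3.77-fold, 2.18 to 6.88), and 0 of 7 reached 2-fold in PC-3. Among all measured genes 4.56% were higher in LNCaP, and in PC-3 2.22% were higher and 1.01% lower. These are transcript levels, and no protein was measured.

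Around the ETV1 locus, the neighbouring gene DGKB, a diacylglycerol kinase, had 354 counts in LNCaP coculture and 302 in LNCaP monoculture, against 3 in PC-3 coculture and 4 in PC-3 monoculture. SCIN, an actin-severing protein gene on the same chromosome, ran the other way, with 14, 2, 369 and 343 counts in the same order. At the MIPOL1 locus, MIPOL1 itself differed by less than counting error between the monocultures, with 737 counts in LNCaP against 762 in PC-3 and a ratio of 0.978 (0.882 to 1.08). Nearby, TTC6 had 2426 against 264 counts and was 9.29-fold higher in LNCaP (8.18 to 10.6). FOXA1, a pioneer factor for the androgen receptor, had 10569 against 6836 counts, a ratio of 1.56 (1.52 to 1.61). Gene-level counts do not show on which copy of ETV1 a transcript arose.

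Genes known as upstream partners of ETS fusions were mostly within 2-fold between the lines. Of 11 measured in monoculture, 3 were at least 2-fold higher in LNCaP (KLK2, FKBP5 and TMPRSS2) and 1 lower (NDRG1). Among all measured genes 22.1% were higher and 23.6% lower, so the count of 3 is near the background. Over the list, the median log2 fold was 0.17. TMPRSS2, the most common partner and an androgen-regulated protease gene, had 27990 counts in LNCaP coculture and 21261 in LNCaP monoculture, against 6384 in PC-3 coculture and 7309 in PC-3 monoculture. With fibroblasts 0 of 11 measured partners in LNCaP and 0 of 10 in PC-3 reached 2-fold in either direction. Few of all measured genes did, with 4.56% higher and 3.03% lower in LNCaP, and 2.22% higher and 1.01% lower in PC-3.

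Genes reported with ERG or PEA3 factors in prostate tumours and in invasion were lower in LNCaP as a list. Of 15 measured in monoculture, 11 were at least 2-fold lower and 3 at least 2-fold higher (CRISP3, CACNA1D and KCNS3). Among all measured genes 23.6% were lower and 22.1% higher. The median log2 fold of the list was -5.35. PLAU, urokinase, had 0 counts in LNCaP monoculture against 5737 in PC-3 monoculture and was at least 1892-fold lower. Between the LNCaP cultures 9 of 15 reached 2-fold higher levels with fibroblasts, as did 4.56% of all measured genes. Among the 9 was MMP14, a membrane-bound metalloproteinase, with 566 counts against 1. All 9 were under 1 CPM in LNCaP monoculture and were measured only through the coculture, and the list holds matrix enzymes that fibroblasts also make. In PC-3 coculture 2 of 13, MMP1 and MMP3, were at least 2-fold higher, where 2.22% of all measured genes were. MMP1 had 983 counts against 414 (2.42-fold, 2.15 to 2.72). MMP3 had 85 counts against 3 and was measured only through the coculture.

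Epithelial differentiation genes, the setting in which EHF, ELF3 and SPDEF act, were split between the lines and within 2-fold with fibroblasts. Of 24 measured in monoculture, 7 were at least 2-fold higher in LNCaP and 12 at least 2-fold lower. Among all measured genes 22.1% were higher and 23.6% lower. Over the list, the median log2 fold was -0.94. KRT19, a simple epithelial keratin, had 170 counts in LNCaP against 22213 in PC-3 monoculture, and KLF5, an epithelial transcription factor, 43 against 3238. CDH1, E-cadherin, was 2.14-fold higher in LNCaP (2.07 to 2.20). In coculture 0 of 23 measured in LNCaP and 0 of 24 in PC-3 differed by 2-fold from the monoculture, with median log2 folds of 0.19 in LNCaP and 0.14 in PC-3. Few of all measured genes did, with 4.56% higher and 3.03% lower in LNCaP, and 2.22% higher and 1.01% lower in PC-3.

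Likeness of pattern was described by the distance between log2 CPM profiles centred over the 4 libraries, among 10050 genes with at least 20 CPM in 1 library. Nearest to ETV1 were ELOVL7, ACP3 (prostatic acid phosphatase) and MCCC2, at distances of 0.12 to 0.16, and nearest to EHF were HERC3, TTLL12 and LOC90246. SMAD3, JCAD and ZFYVE1 were nearest to ELF3, and LRP10, MCOLN1 and JMJD1C to ETS2. Patterns of this kind were common, with 68 genes within a distance of 0.5 of ETV1, 146 of EHF, 173 of ELF3 and 2958 of SPDEF, whose nearest were MRPL19, DPM2 and SET. For ETV4 (ABI3BP, PGM5 and GRAMD1B), ETV5 (SMARCA1, PDE1C and TFCP2) and ETS1 (ITGA1, PEAR1 and CHST7) the nearest genes rest on low LNCaP counts and changed with the prior count.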

How the data were processed

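Bulk RNA from 4 engineered tissue groups, 1 library each, was analysed. Values in the deposited table are unscaled estimated counts by gene symbol. Between 33.5% and 34.0% of them per library were not whole, and all were rounded. The submitters' processing notes name FastQC, STAR, Partek and hg38, while roles, versions, annotation and filters are not given in the sources used here. RNA was extracted with QIAshredder and RNeasy and made into TruSeq v2 libraries, per the labels. TMM factors (edgeR 4.0.16, R 4.3.3) lay between 0.996 and 1.006. Log2 folds used a prior count of 2. Ratios are of scaled counts, with exact conditional binomial 95% intervals. Where 1 library of a pair had 0 counts, its level was set to 3 counts and the fold written as a lower bound. Pairs with 3 counts or fewer on both sides got no fold. Poisson intervals were used for levels. Genes counted as at least 2-fold had 1 CPM or more in 1 of the 2 libraries. No test of a difference was run, because no group had a replicate. Replicates and batches could not be compared. Fold and interval code was tested on simulated data. Other steps ran in Python 3.11.15 (pandas 2.3.3, scipy 1.17.1, numpy 2.4.6). Transcript lengths came from GENCODE v29, since RefSeq transcript lengths were not used here, and positions from RefSeq. Alternatives were DESeq2 1.42.0 size factors, total counts, a prior count of 0.5, no rounding, no low-count filter or 5 CPM, and the median transcript length.

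The members, gene lists and markers were chosen with earlier results of these data known. Named were all members, the other ETS genes, per list up to 4 genes with the largest log2 fold at 20 CPM or more, those behind counts of 5 or fewer, and the 3 genes nearest to each member. Genes named for overlap with a member (DHX8, DGKG, ELF3-AS1) and the comparison of LNCaP gains with PC-3 levels were chosen after their values were seen. The counts over the list of genes around the ETV1 and MIPOL1 loci are not reported here.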

Additional observations from a re-analysis of the deposited data

Results flagged for a closer look

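ETV4 had coculture ratios on opposite sides of 1 in the 2 lines, each with a counting interval that excludes 1. It was higher in the LNCaP coculture than in the LNCaP monoculture (17 against 3 counts, ratio 5.77) and lower in the PC-3 coculture than in the PC-3 monoculture (2819 against 3050 counts, ratio 0.941), a difference in log2 fold of 2.03. With 1 library per group the difference was not tested.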

How the results depend on the processing

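No paired analysis was possible because each group had 1 library, and for the same reason no library could be left out. Of 128 recomputed member folds, 126 stayed within their counting interval, 2 (both of EHF, with DESeq2 size factors) moved outside it. The sign changed for 1 fold, that of ETV5 in PC-3 coculture against PC-3 monoculture, at 0.00 with TMM and -0.01 with total counts. The largest shift, 1.00 in log2, came with the prior count of 0.5, and scaling moved no member by more than 0.07. With no low-count filter, 2-fold higher levels were counted for 906 genes and 2-fold lower ones for 440 in PC-3 coculture, and for 1286 and 753 genes in LNCaP coculture. With at least 5 CPM these counts were 87, 21, 240 and 154, and 1 member in place of 3 was counted as higher in the LNCaP coculture, because ETV4 and ETV5 are under that level. With the median transcript length, 18 of 28 pairs of members kept their order per kb in the PC-3 coculture. With a prior count of 0.5, 0 of the 3 nearest genes were shared for ETV4, 0 for ETV5 and 1 for ETS1. Depth limits ETV4 and ETV5 in LNCaP, where 1 count is 0.0633 CPM in the monoculture.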
